A study of Mus musculus with 12 samples.

Results

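A set of 36 mouse genes that encode the protein kinase Clk1, its relatives, SR proteins and other splicing regulators was examined in newborn lungs, out of 23478 genes in the deposited count table. The members were given by name. All 36 were found in the table (Pnisr under its older symbol Sfrs18), and all 36 passed the filter on low counts that left 15761 genes to test. The set was chosen from the readout: Clk1, Rbm5, Srek1 and Ogt belong to it because their counts were lower after the drug in room air, so values of that comparison are given as a description without a test. C57/Bl6 pups were injected intraperitoneally on day 0 and then kept in room air or in over 95% oxygen (hyperoxia) for 72 hours. The injection was saline or 25 mg/kg aurothioglucose (ATG), a gold compound known as an inhibitor of thioredoxin reductase. The 4 groups were saline in room air, ATG in room air, saline in hyperoxia and ATG in hyperoxia, with 3 libraries each. The labels name no genetic change in any group, and RNA came from lungs whose lavage fluid had been removed.

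Splicing regulators decide which exons and introns are kept when a transcript is processed. SR proteins bind exons through RNA-recognition domains and recruit the spliceosome through domains rich in arginine and serine (RS domains). Kinases of the CLK (LAMMER) and SRPK families phosphorylate those RS domains and so set whether SR proteins sit in nuclear speckles or work on transcripts. Many of these genes limit their own output: they splice in a poison exon that sends the transcript to nonsense-mediated decay, or keep an intron that holds the transcript in the nucleus. Ogt, which attaches O-linked N-acetylglucosamine to nuclear and cytosolic proteins, is also known for a retained intron that responds to that modification.

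The promoter sequences of 5 members are shown as a description: 3 of the genes that define the set and the pair of SR protein genes that fell in both oxygen comparisons. Each is the 250 bases before the RefSeq transcription start (GRCm38.p6), read 5′ to 3′ on the strand of the gene, and capitals mark matches to the motifs named after the sequences. For Ogt the first of 2 annotated starts was taken. Of the 36 members, 33 had an entry, and Clk1, Pnisr and Luc7l had none.
Rbm5 (chr9:107771003-107771252, minus strand): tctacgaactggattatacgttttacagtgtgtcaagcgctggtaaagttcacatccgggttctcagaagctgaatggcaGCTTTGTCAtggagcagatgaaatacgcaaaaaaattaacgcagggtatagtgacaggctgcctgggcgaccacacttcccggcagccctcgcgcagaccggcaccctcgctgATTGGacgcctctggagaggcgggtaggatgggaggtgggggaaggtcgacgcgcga
Srek1 (chr13:103774609-103774858, minus strand): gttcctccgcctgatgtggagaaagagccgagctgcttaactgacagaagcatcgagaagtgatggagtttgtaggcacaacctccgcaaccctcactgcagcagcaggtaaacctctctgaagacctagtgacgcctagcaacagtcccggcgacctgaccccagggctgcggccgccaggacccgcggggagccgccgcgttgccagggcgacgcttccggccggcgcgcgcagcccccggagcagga
Ogt (chrX:101639801-101640050, plus strand): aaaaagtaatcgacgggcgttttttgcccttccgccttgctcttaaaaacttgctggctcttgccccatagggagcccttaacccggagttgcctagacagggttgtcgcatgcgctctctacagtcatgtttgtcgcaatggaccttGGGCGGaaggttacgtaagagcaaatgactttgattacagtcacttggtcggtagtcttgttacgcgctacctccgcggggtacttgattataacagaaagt
Srsf1 (chr11:88047123-88047372, plus strand): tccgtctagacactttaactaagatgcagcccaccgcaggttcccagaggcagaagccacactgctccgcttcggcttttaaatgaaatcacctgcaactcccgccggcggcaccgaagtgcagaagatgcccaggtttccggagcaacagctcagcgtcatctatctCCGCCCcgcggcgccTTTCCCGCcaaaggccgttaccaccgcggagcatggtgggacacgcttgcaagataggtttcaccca
Srsf2 (chr11:116853095-116853344, minus strand): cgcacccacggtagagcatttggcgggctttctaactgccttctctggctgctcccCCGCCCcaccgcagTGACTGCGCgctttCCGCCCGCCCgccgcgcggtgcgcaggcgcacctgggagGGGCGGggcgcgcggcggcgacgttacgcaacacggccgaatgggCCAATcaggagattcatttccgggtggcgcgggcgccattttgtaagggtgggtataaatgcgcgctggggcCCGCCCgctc

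Motifs were searched as exact letters on both strands of the same 250 bases in the 33 members and in all 27025 genes of the RefSeq table, and no motif contained another. The GC box (GGGCGG) was found in 23 of the 33 members and in 32.9% of all genes. The CCAAT box (CCAAT) stood in 13 members and in 34.5% of all genes. The core of the antioxidant response element (TGACNNNGC) occurred in 5 members, Rbm5 and Srsf2 among them, and in 10.1% of all genes. A site with the letters of an E2F element (TTTCCCGC, TTTCGCGC, TTTGCCGC or TTTGGCGC) occurred in Srsf1, Srsf10 and Tra2b, which is 3 members, and in 1.91% of all genes. The ETS letters (CCGGAAGT) were in 4 members against 2.93% of all genes, and the cyclic AMP response element (TGACGTCA) was in 3 members, Clk4, Tra2a and Ccnl1, against 1.62%. In the printed windows Srsf1 had the E2F letters at positions -67 to -60 and a GC box at -82 to -77, while Srsf2 had 5 GC boxes, 2 of them overlapping by 2 bases. Srek1 had none of these letters in its window. Such matches are descriptions of sequence and not measured binding sites.

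Library totals ran from 14331749 to 20486735 counts, and levels are given as CPM, a gene's share of the library's counts after TMM scaling. Lung markers were present in every library, and all 11 on the list passed the filter. Saline hyperoxia library 2 and ATG hyperoxia library 2 stood apart through the atrial gene Nppa, at 270 and 1108 CPM against 1.85 to 3.55 CPM elsewhere, and through cardiomyocyte markers summed to 3150 and 6970 CPM. Saline hyperoxia library 1 stood apart in skeletal muscle markers, which summed to 330 CPM against 20.2 to 61.3 CPM elsewhere. Saline hyperoxia library 2 did so in thymocyte markers, which summed to 61.4 CPM, with Rag1 at 39.2 CPM there and at 15.0 CPM in saline hyperoxia library 3. Counts of sex-linked genes placed 3 male libraries in the saline room air group, 1 male and 2 female in ATG room air, 1 male and 2 female in saline hyperoxia, and 2 male and 1 female in ATG hyperoxia. The labels do not say whether the libraries of a group came from separate animals, so p-values measure the spread between these libraries. In whole lung, fewer cells of a type and less RNA per cell cannot be told apart.

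Per kilobase of annotated exon, the members differed widely in level. In the saline room air group Srrm2, a large scaffold protein of nuclear speckles, had 92.8 CPM per kb, Srsf2 had 91.3 and the RNA helicase Ddx5 had 90.7. Their relatives Ddx17 and Srsf5 followed at 67 and 46.6 CPM per kb. The genes that define the set lay in the middle of this order: Ogt at 23.2, Clk1 at 15.6, Rbm5 at 12.1 and Srek1 at 11 CPM per kb. Srsf4 was lowest, at 3.03 CPM per kb, just under Rbm6 at 4.25 and the SR protein kinase Srpk1 at 4.31. Of the 75-base stretches in Srsf4 transcripts, 37.8% also occur in Gm12992 on the opposite strand, so its count is uncertain. Exon lengths are those of all GENCODE M21 exons of a gene joined, so a gene with long rare exons has a lower value per kb.

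The members share a transcript feature that the choice did not use. In GENCODE M21, 32 of the 36 members (88.9%) have at least 1 transcript annotated as a target of nonsense-mediated decay, against 26.7% of the 14169 protein-coding genes tested. A transcript with a retained intron is annotated for 31 members (86.1%), against 55.8% of those genes. Rbm5 has 13 such retained-intron transcripts and 4 decay transcripts, Clk1 has 7 and 2, and Srek1 has 2 and 1. Ogt has 3 retained-intron transcripts and no annotated decay transcript, while Srsf10, Rbm10 and Ddx17 have neither kind. Genes were not matched for the number of annotated transcripts. The deposited values are 1 count per gene, so spliced, retained-intron and poison-exon transcripts of a member add up in them and cannot be told apart.

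The effect of ATG in room air is the comparison from which the set was drawn. Clk1, a dual-specificity kinase that phosphorylates SR proteins, is located at chr1:58410189-58424066 on the minus strand (mm10, GENCODE M21). Its level was 114, 139 and 128 CPM in the saline room air libraries and 84.1, 85.3 and 64.6 CPM in the ATG room air libraries. Every ATG library lay below every saline library, and the log2 fold change was -0.70 ± 0.12 (SE), which is 0.61 of the saline level. Rbm5 (chr9:107740371-107770996, minus strand) encodes an RNA-binding protein known for its effect on the splicing of apoptosis genes. It had 179, 197 and 183 CPM after saline and 142, 131 and 108 CPM after ATG, without overlap, with a log2 fold change of -0.55 ± 0.10 (SE). For the neighbouring Rbm6, on the same strand at chr9:107773559-107873237, the value was -0.05 ± 0.11 (SE) and the groups overlapped.

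Srek1, at chr13:103739348-103774608 on the minus strand, encodes an SR-related protein that acts on splice site choice. Its saline room air libraries had 93.4, 100 and 112 CPM and its ATG room air libraries 82.7, 73.7 and 70.7 CPM, a log2 fold change of -0.43 ± 0.09 (SE) without overlap. Ogt, at chrX:101640060-101684351 on the plus strand, had 185, 173 and 201 CPM after saline and 137, 153 and 122 CPM after ATG. These groups did not overlap either, and the log2 fold change was -0.44 ± 0.10 (SE). ATG room air library 3 had the lowest level of Clk1, Rbm5, Srek1 and Ogt among the 6 room air libraries. That library was also lowest for the nuclear RNA Neat1, at 60.8 CPM against 106 and 222 in the other ATG libraries and 199 to 238 after saline, and for Malat1, at 7228 CPM against 8521 to 11330 in the other room air libraries. The part of nuclear RNA in the lower counts was not tested. Without that library the log2 fold changes were -0.59 for Clk1, -0.46 for Rbm5, -0.39 for Srek1 and -0.37 for Ogt. Sex was unequal between these groups, and Ogt is X-linked. The part of sex in these values was not tested. The 1 male ATG library, library 2, had 153 CPM of Ogt and 85.3 CPM of Clk1. With sex as a covariate the values were -0.73 for Clk1, -0.55 for Rbm5, -0.44 for Srek1 and -0.37 for Ogt.

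**Figure D1:**
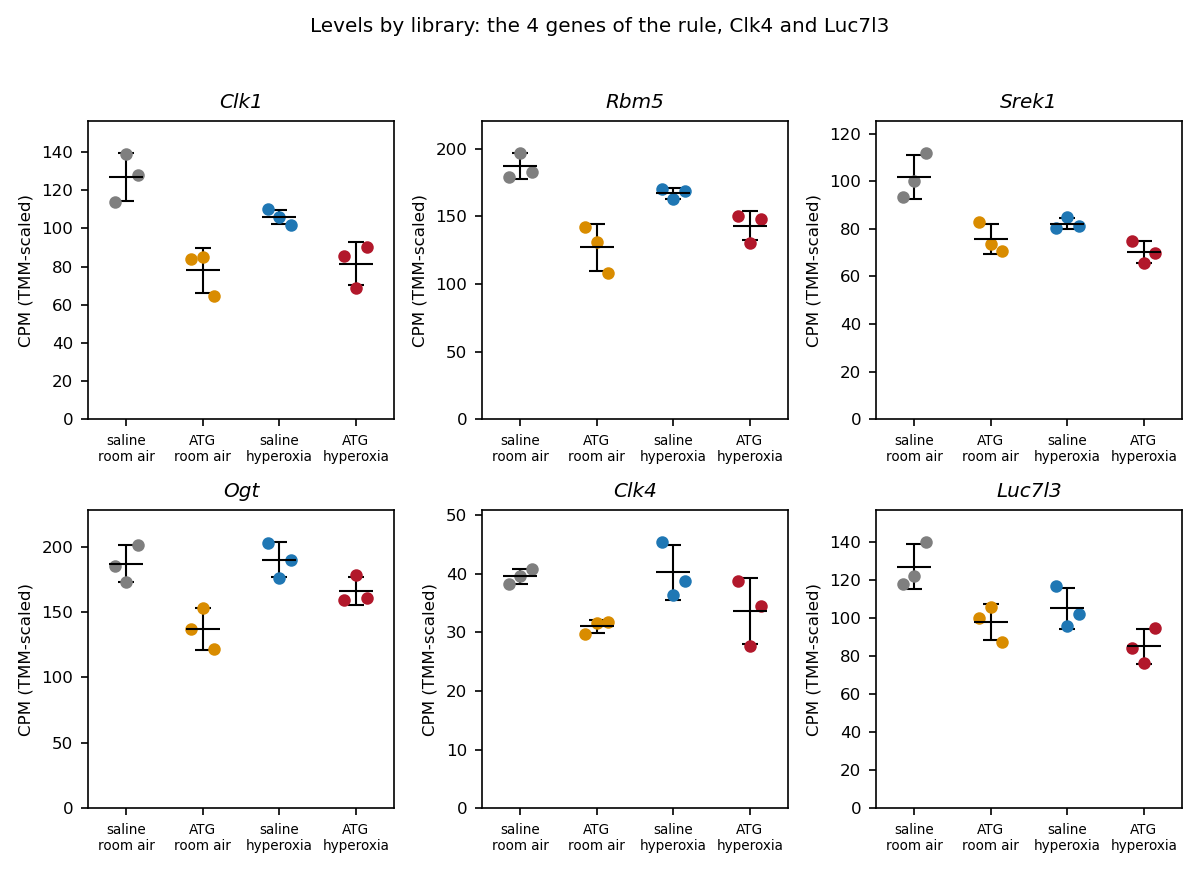
Level in CPM (TMM-scaled, linear axes from 0) of Clk1, Rbm5, Srek1, Ogt, Clk4 and Luc7l3 in the 4 groups. Points are the 3 libraries of a group, the long bar is their mean and the whiskers are 1 SD. In room air the ATG points of all 6 genes lie below the saline points, and in hyperoxia the gaps between means are smaller. The room air comparison chose the genes that define the set, and Clk4 and Luc7l3 were among the next in size there. Ccnl2, at -0.39 on the log2 scale, was larger than both, but its libraries overlapped and it is not shown. Nothing is read from the larger gaps in room air.

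Among the other members, those next in size in room air were Ccnl2 at -0.39, Luc7l3 at -0.37, Clk4 at -0.35 and Tra2a at -0.29 on the log2 scale. Clk4, the closest relative of Clk1, had 38.3, 39.6 and 40.7 CPM after saline and 29.7, 31.6 and 31.8 after ATG. Clk2 (-0.15 ± 0.11, SE) and Clk3 (0.15 ± 0.10, SE) had values of opposite sign, and both sets of libraries overlapped. Of the 36 members, 26 had a log2 fold change below 0, where 47.2% of all genes tested did, and the median was -0.06. The ATG libraries were wholly below the saline libraries for 10 members, against 5.72% of all genes, and wholly above for 0 members, against 6.26%. edgeR's quasi-likelihood test (Benjamini-Hochberg, threshold 0.05) called 0 of the 36 members and 0 of the 15761 genes (percent called 0%). At an unadjusted p under 0.05 it had 11 members and 949 genes (6.02%). limma-voom called 0 members, and DESeq2 called 16 genes, 4 of them members, which were Clk1, Rbm5, Srek1 and Ogt. The choice of the set fixes these counts, and nothing is read from them.

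ATG against saline in hyperoxia compares none of the room air libraries, so every member was tested there. The estimate of the spread came from all 12 libraries, the room air libraries included. No member passed: edgeR called 0 of 36, and 1 gene of 15761 (0.00634%), while DESeq2 and limma-voom called 0 members. Clk1 had 110, 106 and 102 CPM in the saline hyperoxia libraries and 85.8, 68.7 and 90.3 CPM in the ATG hyperoxia libraries. These libraries did not overlap, but the log2 fold change of -0.38 (95% interval -0.64 to -0.12) did not pass over all genes (edgeR adjusted p = 0.673). Its size was 0.77 of the saline level, against 0.61 in room air, the comparison by which Clk1 was chosen. Leaving out 1 library at a time moved the Clk1 value in hyperoxia between -0.46 and -0.26, and it was -0.27 without the Nppa-rich libraries. Thymocyte markers moved with this comparison: their sum was 3.96 to 61.4 CPM after saline and 1.35 to 3.25 CPM after ATG, all 4 tested were lower at an unadjusted p under 0.05, with a median of -3.48, and none passed. Skeletal muscle markers summed to 20.2 to 330 CPM after saline and 23.3 to 61.3 CPM after ATG, and none of the 5 tested passed. B and T lymphocyte markers summed to 37.6 to 43.8 CPM after saline and 14.4 to 31.2 CPM after ATG. All 5 tested lay below 0, with a median of -0.61, and none passed. Their part in the values of the members was not tested.

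For Rbm5 the saline hyperoxia libraries had 170, 163 and 169 CPM and the ATG hyperoxia libraries 150, 130 and 148 CPM. The groups did not overlap, with a log2 fold change of -0.23 (95% interval -0.43 to -0.03, edgeR adjusted p = 0.793). Srek1 had 80.3, 84.8 and 81.3 CPM after saline and 75.1, 65.8 and 69.8 CPM after ATG. Its libraries did not overlap either, and the value was -0.23 (95% interval -0.42 to -0.03, edgeR adjusted p = 0.781). Ogt had 203, 176 and 190 CPM after saline and 159, 178 and 161 CPM after ATG, so that 1 ATG library lay above 1 saline library. Its log2 fold change was -0.19 (95% interval -0.40 to 0.01, edgeR adjusted p = 0.852).

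The other members in hyperoxia were spread around 0. Luc7l3, a U1-associated protein with an RS domain, had a log2 fold change of -0.30 ± 0.11 (SE), Clk4 of -0.26 ± 0.12 (SE) and Srsf11 of -0.18 ± 0.07 (SE). Srsf5 had the highest value, 0.47 ± 0.18 (SE). Its saline hyperoxia libraries were uneven, at 256, 143 and 162 CPM, and the ATG libraries at 239, 254 and 283 CPM overlapped them. Over all members, 5 had lower counts at an unadjusted p under 0.05 (Clk1, Luc7l3, Srek1, Rbm5 and Srsf11) and 1 had higher counts (Srsf5). Without the genes that define the set there were 2 lower and 1 higher of 32, against 3.07% and 2.62% of all genes. The ATG libraries were wholly below the saline libraries for 6 members and wholly above for 2 (Srpk2 and Ddx5). Without the genes that define the set these were 3 and 2 of 32, where 5.54% and 5.55% of all genes were.

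Of the 36 members, 24 had a log2 fold change below 0 in hyperoxia, where 49.8% of all genes did, and the median was -0.04. Among the 26 members below 0 in room air, 21 were below 0 in hyperoxia as well, and 7 members were above 0 in both. Without the genes that define the set, 17 of 22 were below 0 in both. Over all genes tested, 58.5% of those below 0 in room air were also below 0 in hyperoxia. The room air signs belong to the comparison that chose the set, so nothing is read from these counts of shared signs. By role, the medians of the drug effect in hyperoxia were -0.09 for the 6 kinases, -0.01 for the 12 SR proteins, -0.06 for the 9 SR-related and speckle proteins and -0.11 for the 4 RBM proteins. The helicases, cyclins L and Ogt, 5 genes, had a median of -0.06. The interval for Srsf1, whose value was 0.00, ran from -0.19 to 0.19, and that for Srrm2, at 0.04, from -0.11 to 0.19.

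**Figure D2:**
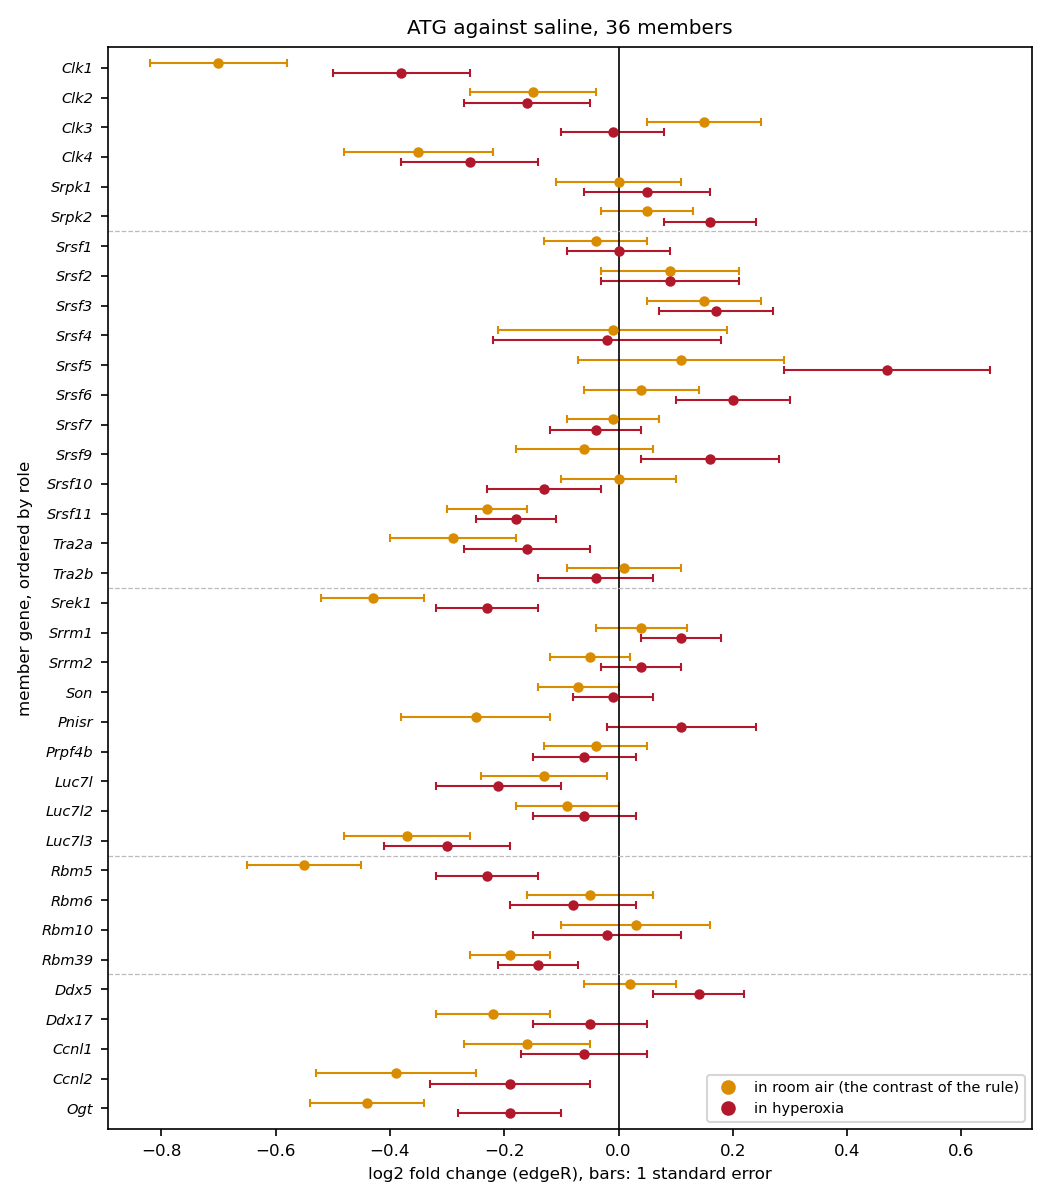
Log2 fold change of ATG against saline for the 36 members, ordered by role, in room air (the comparison that chose the set) and in hyperoxia. Bars are 1 standard error, and dashed lines separate the roles. Clk1 has the lowest value in both, -0.70 and -0.38, and the 12 SR proteins have a median of -0.01 in both.

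The difference between the drug effects in hyperoxia and in room air was fitted as an interaction. edgeR called 0 of the 32 members that the choice left free and 0 of 15761 genes, and DESeq2 and limma-voom also called 0. At an unadjusted p under 0.05 there were 0 of these 32 members and 465 genes (2.95%). For the genes that define the set the values are a description: 0.32 for Clk1 (95% interval -0.04 to 0.69), 0.32 for Rbm5 (0.04 to 0.61), 0.25 for Ogt (-0.04 to 0.54) and 0.20 for Srek1 (-0.07 to 0.47). Positive values mean a smaller drop after ATG in hyperoxia. Genes chosen for low counts after ATG in room air tend to have positive values here by that choice. Nothing is read from these values or from intervals that leave out 0. Among the other members the interaction ran from -0.16 for Clk3 to 0.36 for Srsf5 and Pnisr.

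Oxygen itself went with lower counts of SR protein genes. In saline pups 6 of the 32 members tested fell in hyperoxia and 0 rose, where edgeR called 4.50% of all genes lower, 4.70% higher and 9.19% in all. The members that fell were Srsf1, Srsf2, Srsf3, Srsf6, Srsf11 and Luc7l2. In ATG pups 5 of the 32 fell, where 6.25% of all genes did: Srsf1, Srsf2, Srsf10, Tra2b and Luc7l2. Ddx17 rose there, where 5.41% of all genes did, and 11.7% of all genes changed. The hyperoxia libraries were wholly below the room air libraries for 14 of the 32 members after saline and 8 after ATG, against 14.9% and 13.9% of all genes. They were wholly above for 2 members in each comparison, against 14.6% and 13.7%. The oxygen comparisons after saline and after ATG compare different libraries, but each shares a group with a drug comparison. All share the 1 estimate of the spread, so their tests are not independent.

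Srsf1 (chr11:88047373-88053755, plus strand) is a founding SR protein that acts in constitutive and regulated splicing. It had 221, 224 and 246 CPM in saline room air and 136, 146 and 159 CPM in saline hyperoxia. After ATG it had 228, 219 and 223 CPM in room air and 157, 129 and 156 CPM in hyperoxia. Every hyperoxia library lay below every room air library, with log2 fold changes of -0.65 ± 0.09 (SE, edgeR adjusted p = 0.000567) after saline and -0.60 ± 0.09 (SE, edgeR adjusted p = 0.000687) after ATG. The ratio to room air was 0.64 after saline and 0.66 after ATG.

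Srsf2 (chr11:116849901-116853094, minus strand), an SR protein that marks nuclear speckles, had 276, 254 and 279 CPM in saline room air and 170, 188 and 191 CPM in saline hyperoxia. After ATG its level was 254, 292 and 316 CPM in room air and 205, 158 and 223 CPM in hyperoxia. Its groups did not overlap in either comparison, and the log2 fold change was -0.56 ± 0.12 (SE) in both, with edgeR adjusted p = 0.00772 after saline and 0.00567 after ATG. Of the 75-base stretches in Srsf2 transcripts, 18.5% also occur in other annotated genes, mainly Mettl23 and Mfsd11 on the opposite strand, so its count is uncertain. Neither of those genes passed: Mettl23 had -0.05 in both oxygen comparisons, at 5.86 CPM in saline room air, and Mfsd11 had -0.08 and 0.18, at 9.87 CPM. For Srsf1 that share was 0.45%.

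**Figure D3:**
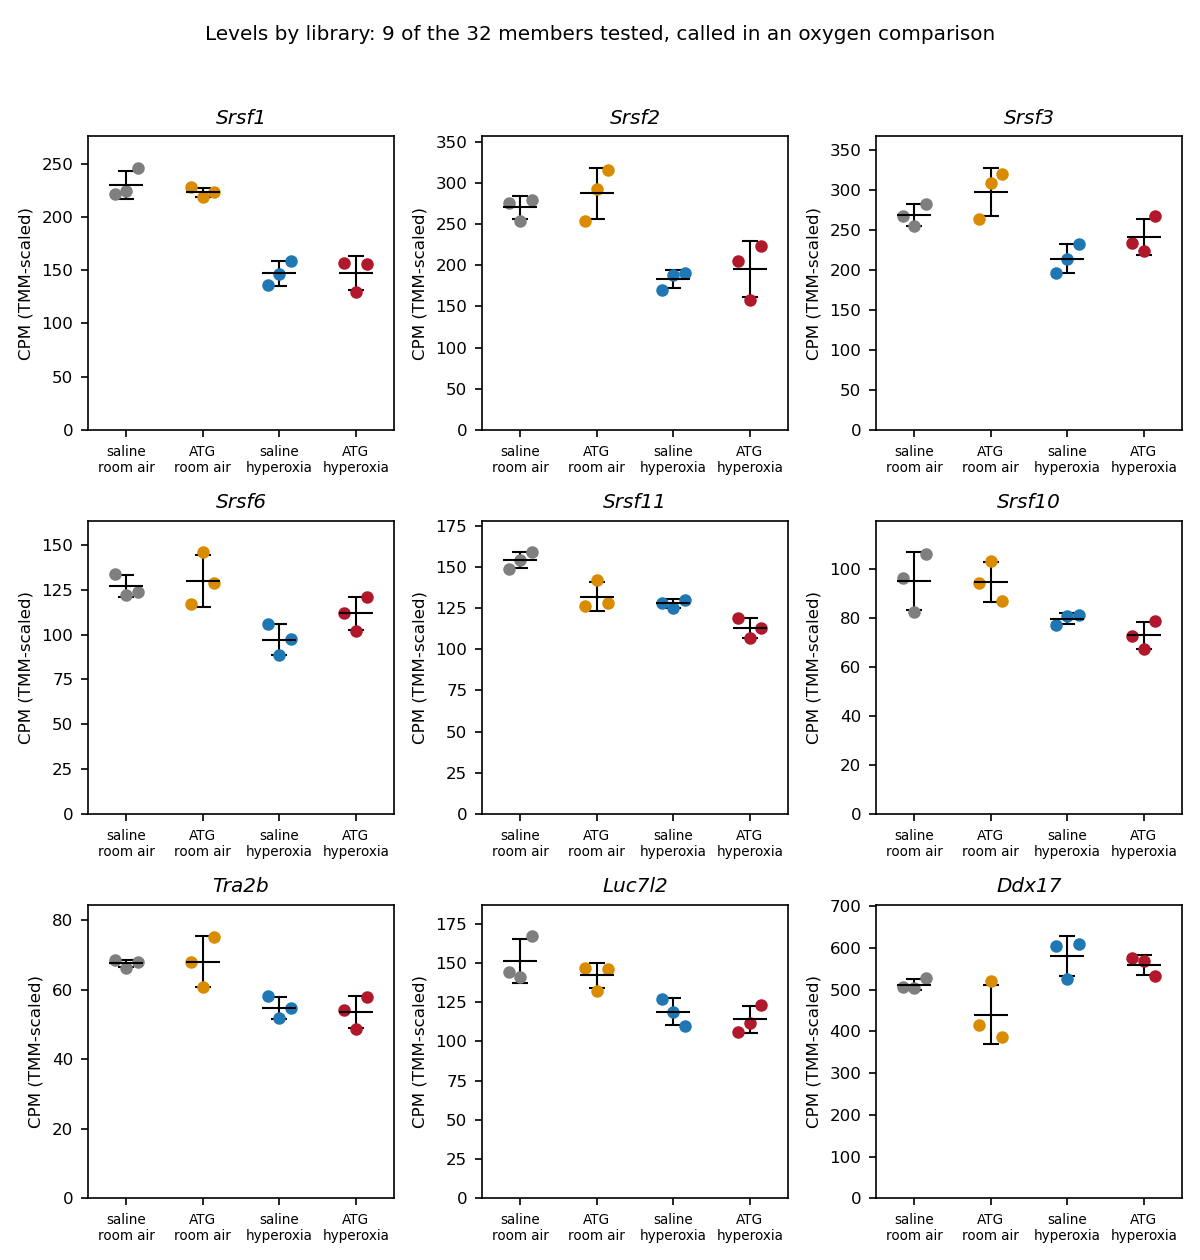
Level in CPM (TMM-scaled, linear axes from 0) of the 9 members called in at least 1 oxygen comparison, of the 32 tested there, in the 4 groups. Points are the 3 libraries of a group, the long bar is their mean and the whiskers are 1 SD. For Srsf1 all 6 hyperoxia points, at 129 to 159 CPM, lie below all 6 room air points, at 219 to 246 CPM.

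Srsf3, a small SR protein that also acts in mRNA export, had 267, 255 and 282 CPM in saline room air against 196, 214 and 232 CPM in saline hyperoxia, and fell with a log2 fold change of -0.33 ± 0.10 (SE, edgeR adjusted p = 0.0485). After ATG it had 263, 309 and 320 CPM in room air and 234, 223 and 267 CPM in hyperoxia, which overlapped, and the value of -0.30 ± 0.10 (SE) did not pass (edgeR adjusted p = 0.0571). Srsf6 had 134, 122 and 124 CPM in saline room air and 106, 88.6 and 97.5 CPM in saline hyperoxia, a fall of -0.38 ± 0.10 (SE, edgeR adjusted p = 0.0231) on the log2 scale. After ATG its libraries had 117, 146 and 129 CPM in room air and 112, 102 and 121 CPM in hyperoxia, and overlapped, at -0.22 ± 0.10 (SE, edgeR adjusted p = 0.166).

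Srsf11, a member of the SR protein family, had 149, 154 and 159 CPM in saline room air and 128, 125 and 130 CPM in saline hyperoxia. Its fall of -0.27 ± 0.07 (SE, edgeR adjusted p = 0.0307) was the smallest of the 6 that passed after saline. After ATG it had 126, 142 and 128 CPM in room air and 119, 107 and 113 CPM in hyperoxia. These did not overlap, but the value of -0.22 ± 0.07 (SE) did not pass (edgeR adjusted p = 0.0635).

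Srsf10, an SR protein that represses splicing when dephosphorylated, passed after ATG and not after saline. It had 96.4, 82.3 and 106 CPM in saline room air and 77.1, 80.8 and 81.0 CPM in saline hyperoxia, at -0.25 ± 0.10 (SE, edgeR adjusted p = 0.143). After ATG it fell from 94.1, 103 and 86.8 CPM to 72.5, 67.3 and 78.6 CPM, at -0.38 ± 0.10 (SE, edgeR adjusted p = 0.0235). Neither pair of groups overlapped.

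Tra2b, a sequence-specific SR-like splicing activator, had 68.5, 66.3 and 68.1 CPM in saline room air and 58.1, 51.8 and 54.9 CPM in saline hyperoxia, at -0.30 ± 0.10 (SE, edgeR adjusted p = 0.0675). After ATG it had 68.1, 60.7 and 75.3 CPM in room air and fell to 54.3, 48.7 and 57.9 CPM in hyperoxia, at -0.34 ± 0.10 (SE, edgeR adjusted p = 0.0307). The libraries did not overlap in either case. Some stretches of Srsf3 (7.64%), Srsf10 (8.5%) and Tra2b (5.53%) also occur in other genes.

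Luc7l2, a homolog of a yeast U1 component, fell in both oxygen comparisons. It had 144, 141 and 167 CPM in saline room air and 127, 119 and 110 CPM in saline hyperoxia, at -0.35 ± 0.09 (SE, edgeR adjusted p = 0.0270). After ATG it had 147, 132 and 146 CPM in room air and 106, 112 and 123 CPM in hyperoxia, at -0.32 ± 0.09 (SE, edgeR adjusted p = 0.0342). No libraries overlapped, but 19.7% of its stretches are shared with other genes, among them the antisense gene Gm26699, so its count is uncertain. Its relatives Luc7l (-0.12 after saline, -0.20 after ATG) and Luc7l3 (-0.27 and -0.20) did not pass.

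Ddx17, an RNA helicase that works with Ddx5 in splicing and transcription, was the member that rose. After ATG it had 414, 520 and 387 CPM in room air and 576, 569 and 532 CPM in hyperoxia, at 0.35 ± 0.10 (SE, edgeR adjusted p = 0.0396). The hyperoxia libraries lay above all room air libraries, and ATG room air libraries 1 and 3 were the lowest of all 12. After saline it had 507, 504 and 527 CPM in room air and 605, 525 and 609 CPM in hyperoxia, which overlapped, at 0.18 ± 0.10 (SE, edgeR adjusted p = 0.326). Ddx5 had -0.04 after saline and 0.08 after ATG.

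The members that passed in 1 oxygen comparison and not in the other were not shown to differ between them, since the interaction called 0 members. The difference between the oxygen effects after ATG and after saline was 0.02 for Srsf3 (95% interval -0.27 to 0.32), 0.16 for Srsf6 (-0.13 to 0.45) and 0.05 for Srsf11 (-0.17 to 0.27). It was -0.13 for Srsf10 (-0.43 to 0.18), -0.04 for Tra2b (-0.33 to 0.25) and 0.17 for Ddx17 (-0.14 to 0.47).

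By role, 5 of the 12 SR proteins fell after saline and 4 of 12 after ATG, where 4.50% and 6.25% of all genes did, with medians of -0.26 and -0.23. Of these 12, 11 had a value below 0 after saline and 10 after ATG, where 50.2% and 49.9% of all genes tested did. Srsf5 had the highest values of the 12, 0.01 after saline and 0.37 ± 0.18 (SE, edgeR adjusted p = 0.212) after ATG. None of the 5 kinases outside the choice passed: Srpk1 had -0.25 and -0.20, Srpk2 0.11 and 0.22, Clk2 -0.11 and -0.12, Clk3 0.10 and -0.07, and Clk4 0.03 and 0.11. Luc7l2 was the one of 8 SR-related and speckle proteins that passed. The large scaffold proteins Srrm2 (-0.03 and 0.06), Srrm1 (-0.03 and 0.05) and Son (-0.01 and 0.05) lay near 0, with intervals that reached at most -0.19 and 0.21. None of the 3 RBM proteins Rbm6, Rbm10 and Rbm39 passed, and neither did the cyclins Ccnl1 and Ccnl2, which activate kinases of the transcription and splicing machinery. Of the 75-base stretches of Rbm10 and Clk3, 31.2% and 13.1% also occur in other genes, so their counts are uncertain.

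For the genes that define the set the oxygen values are a description. After saline the log2 fold change was -0.26 for Clk1, -0.31 for Srek1, -0.16 for Rbm5 and 0.02 for Ogt. After ATG it was 0.07 for Clk1, -0.11 for Srek1, 0.16 for Rbm5 and 0.27 for Ogt. The order of the Clk1 group means was 127 ± 12.7 CPM in saline room air, 106 ± 3.86 in saline hyperoxia, 81.6 ± 11.4 in ATG hyperoxia and 78.0 ± 11.6 in ATG room air (SD, n = 3 each). The ATG means differed by less than the spread between libraries. For Ogt the means were 190 ± 13.6 CPM in saline hyperoxia, 187 ± 14.1 in saline room air, 166 ± 10.5 in ATG hyperoxia and 137 ± 15.8 in ATG room air (SD, n = 3 each), and the saline means differed by less than that spread.

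**Figure D4:**
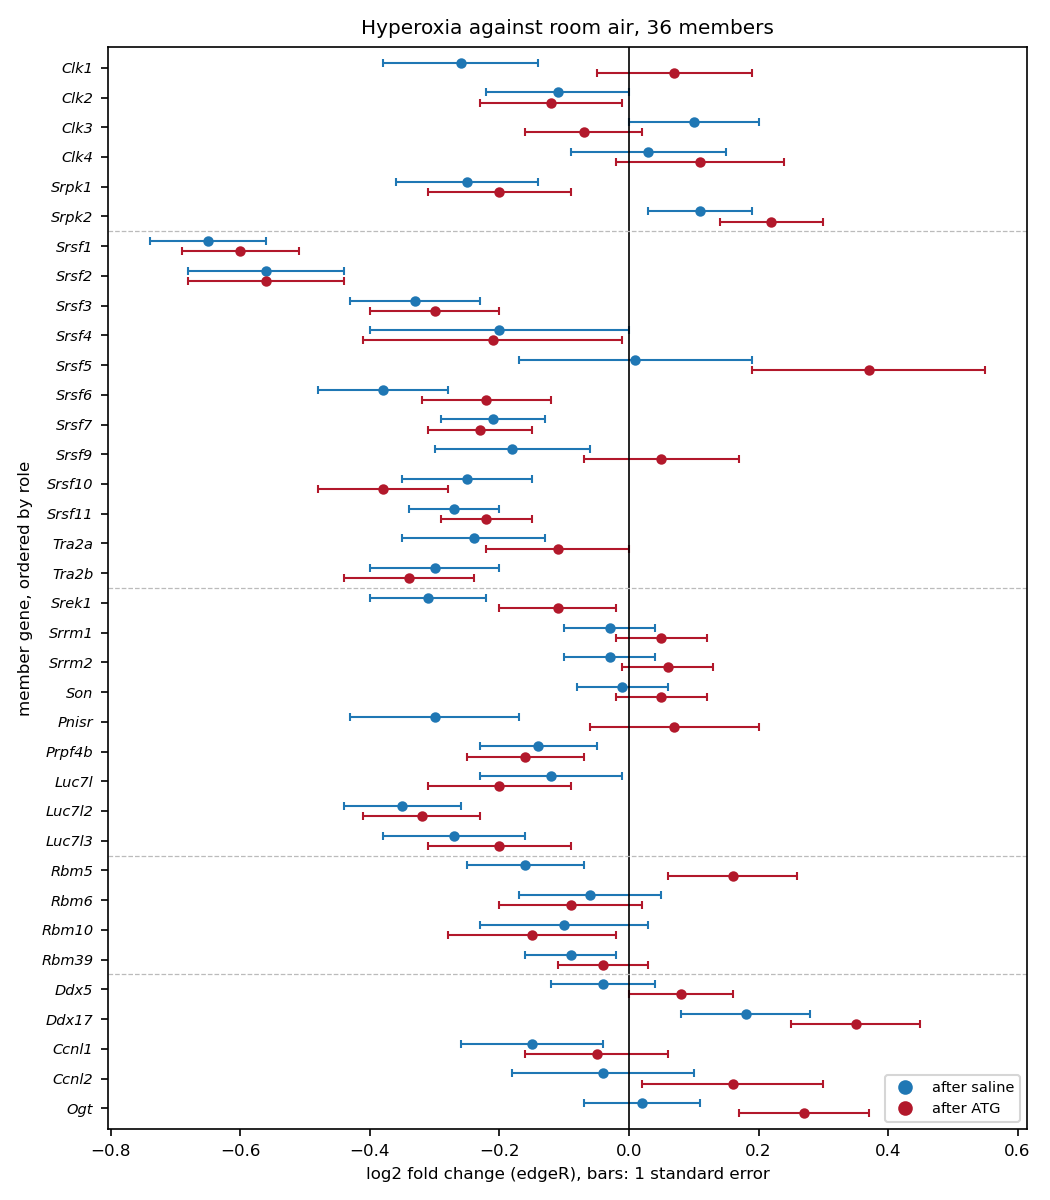
Log2 fold change of hyperoxia against room air for the 36 members, ordered by role, after saline and after ATG. Bars are 1 standard error, and dashed lines separate the roles. Srsf1 (-0.65 and -0.60) and Srsf2 (-0.56 and -0.56) lie farthest below 0, and Srrm1, Srrm2 and Son lie near 0.

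Markers of cycling cells moved with the oxygen comparisons. All 6 of 6 cycling cell markers (Mki67, Top2a, Plk1, Aurkb, Ccnb1 and Mcm6) fell in both, with median log2 fold changes of -1.53 after saline and -2.02 after ATG. Their summed level was 1209 to 1861 CPM in saline room air and 359 to 679 CPM in saline hyperoxia, and 985 to 1896 against 274 to 489 CPM after ATG. The part of cycling cells in the falls of Srsf1, Srsf2 and the other SR protein genes was not tested. Without the Nppa-rich libraries Srsf1 had -0.63 after saline and -0.50 after ATG, and Srsf2 had -0.57 and -0.41, all of which passed.

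Srsf1 and Srsf2 passed in both oxygen comparisons under each of the 20 alternatives run, and the other calls were less stable. After saline the 6 calls became 3 without saline room air library 1 or library 2, and 2 without saline room air library 3, saline hyperoxia library 2 or saline hyperoxia library 3. After ATG the 6 calls became 3 without saline room air library 1 or ATG room air library 3, and 2 without ATG hyperoxia library 1 or library 2. With sex as a covariate the calls were 4 after saline and 3 after ATG, and without the Nppa-rich libraries Srsf1 and Srsf2 were the 2 left in each. A fit of the 6 libraries compared had 7 calls after saline and 2 after ATG.

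**Figure D5:**
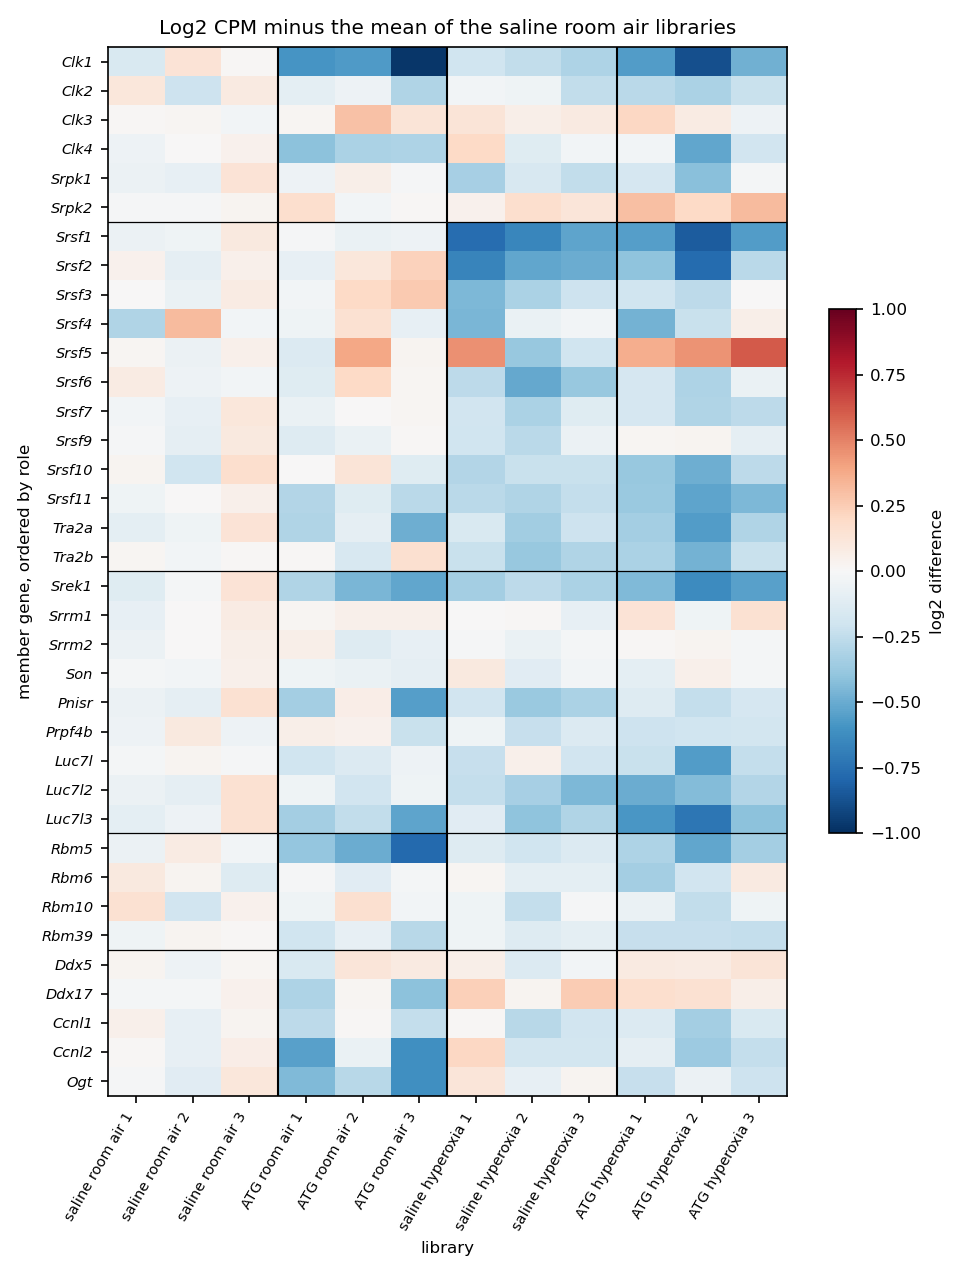
Difference of log2 CPM from the mean of the saline room air libraries for each member (rows, by role) in each of the 12 libraries (columns, by group). Blue is lower and red is higher, on a scale of -1 to 1. The SR protein rows are mostly blue in the hyperoxia columns, where their library medians run from -0.39 to -0.21, and Clk1 and Rbm5 are at -0.97 and -0.78 in ATG room air library 3.

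Seen library by library, the median difference over the 36 members from the saline room air mean was -0.11, -0.06 and -0.08 in the ATG room air libraries. It was -0.12, -0.23 and -0.18 in the saline hyperoxia libraries and -0.20, -0.31 and -0.19 in the ATG hyperoxia libraries. The saline room air libraries themselves had -0.02, -0.04 and 0.05. Over all genes tested this median lay between -0.01 and 0.02. The ATG room air values come from the comparison that chose the set, and nothing is read from them. ATG hyperoxia library 2, the richest in Nppa, was lowest. For the SR proteins alone the medians were between -0.07 and 0.06 in ATG room air and between -0.39 and -0.21 in hyperoxia.

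Lists of related genes were read in the same fits. Their counts stand beside 4.50% of all genes lower and 4.70% higher after saline, and 6.25% lower and 5.41% higher after ATG. Among 23 hnRNP genes, which often oppose SR proteins at splice sites, 7 fell after saline and 9 after ATG, and 0 rose. Hnrnpa3 fell by 0.47 and 0.57 on the log2 scale and Hnrnph1 by 0.52 and 0.46. Of the 30 core spliceosome genes none passed after saline, and after ATG Snrnp200 rose by 0.32 and Snrpd1 fell by 0.57. Among 20 other RS-domain proteins 2 fell after saline (Ddx46 and Arglu1) and 2 after ATG (Pnn and Bclaf1), counts near those shares. Among 18 other splicing regulators Mbnl3 and Tia1 fell in both comparisons, and Esrp2, an epithelial regulator, rose after ATG by 0.53. In the paraspeckle list of 10, 5 fell after saline and 4 after ATG, Sfpq by 0.57 and 0.53 and Nono by 0.29 and 0.34. Neat1 and Malat1, the nuclear RNAs of that list, rose after ATG by 1.10 and 0.48. After saline no gene of that list passed as higher, and the highest value was 0.65. These genes were not shown to differ between the comparisons, since the interaction called 0 genes.

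The remaining lists bear on single members. Of 15 nonsense-mediated decay genes, 1 rose in each comparison, and 2 fell after saline and 1 after ATG. Over all genes, 4.70% rose and 4.50% fell after saline, and 5.41% rose and 6.25% fell after ATG. Smg5 rose by 0.47 and 0.51 and Smg6 fell by 0.26 and 0.37. None of 14 tested kinases and cyclins of the CMGC and transcription list passed. Oga, which removes the sugar that Ogt attaches, fell after saline by 0.33 (edgeR adjusted p = 0.0238) and had -0.22 after ATG. Gfpt2, an enzyme that feeds the same pathway, rose after ATG by 1.01. After saline none of the 7 genes on the list of Oga and Gfpt2 passed as higher, and their highest value was 0.69. The interaction called 0 genes. Cirbp, a cold-inducible RNA-binding protein, fell after saline by 0.71 (edgeR adjusted p = 0.0454), while Rbm3 did not pass at -0.23 and -0.25. No gene of these lists passed in either drug comparison by edgeR.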

How the data were processed

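Whole-lung RNA of 12 libraries (4 groups of 3) was amplified with the Ovation RNA-Seq System V2, made into Nextera XT libraries and, per the labels' protocols, sequenced from both ends for 75 bases (HiSeq 2500). The authors deposited whole-number counts per gene symbol, not normalized. Bowtie2, Cufflinks, DESeq and mm10 are named per the submitters' processing notes, while neither the counting tool nor its use of strand is stated there, so counts of overlapping genes cannot be separated. Totals were 14331749 to 20486735 counts per library. No pair of replicates agreed within sampling noise (chi-square per degree of freedom 6.84 to 43.1).

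Genes were kept by filterByExpr (minimum count 10, minimum total 15), given TMM factors, and tested in a single model of the 4 group means on all 12 libraries by edgeR 4.0.16 (glmQLFit and glmQLFTest, R 4.3.3). P-values were two-sided and adjusted by Benjamini-Hochberg over 15761 genes, with a threshold of 0.05, and SE is the log2 fold change divided by the root of the F statistic. The common biological coefficient of variation was 18.7%. For library deviations, log2 CPM took a prior count of 2. Deviations of same-numbered libraries of different groups had correlations from -0.16 to 0.28 (18 pairs), and numbers were not used as pairs. The highest was that of saline hyperoxia library 2 with ATG hyperoxia library 2, the Nppa-rich libraries. Alternatives used DESeq2 and limma-voom, among others.

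The members and lists were chosen with earlier results of these data known. All members are named by role. Every library is given for the genes of the choice and for members that passed, and of each list at most 2 genes per direction and comparison, plus Oga, Cirbp, Rbm3, Malat1 and Neat1.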

Additional observations from a re-analysis of the deposited data

How the results depend on the processing

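Results were recomputed with RLE size factors, with DESeq2, with limma-voom, without the low-count filter, with a replicate block, with the 6 samples compared alone, with sex as a covariate, and by omission of the Nppa-rich libraries or of each library in turn. After saline the 6 members called in the oxygen comparison became 2 without the Nppa-rich libraries, and 2 to 6 when 1 library was left out. After ATG the 6 became 2 in the fit of the 6 samples, 3 with sex as a covariate, 2 without the Nppa-rich libraries, and 2 to 7 when 1 library was left out. For ATG in room air DESeq2 called 4 members in place of 0. For all these changes the cause was not tested. Fits that leave out libraries have fewer samples, and the part of that in the counts was not tested either. No direction reversed. Of 20 alternatives each, Srsf1 and Srsf2 lost 0 calls, while after saline Srsf3 lost 12, Srsf11 9, Srsf6 7 and Luc7l2 4, and after ATG Tra2b and Ddx17 lost 11, Luc7l2 9 and Srsf10 6.

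With the replicate number as a block, 6 members were called after saline and 6 after ATG (Srsf3 in, Ddx17 out), and 0 in each drug comparison and in the interaction. Of 18 same-numbered pairs, 2 had a correlation over 0.1, at 0.28 and 0.13, both between the hyperoxia groups. Differently numbered pairs were not compared, so these values do not settle whether the numbers pair the libraries.

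The lowest count of a member in any library was 126 (Srsf4), and the part of depth in the calls was not tested.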
